A study of Rattus norvegicus with 4 samples.

Results

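The neurotrophins and their receptors are taken here as 7 genes: the ligands Bdnf, Ntf3 and Ntf4, the receptors Ngfr, Ntrk2 and Ntrk3, and the sorting receptor Sort1. Their peaks of trimethylated lysine 27 of histone H3 (H3K27me3) were found by gene name, every peak of the list that names a member as its nearest gene being taken. In all, 133 of 129550 peaks named 6 of the 7 genes, and no peak named Sort1. The chromatin came from sciatic nerves of Sprague Dawley males at postnatal day 42, from the side that received a skin incision as a sham operation, 1 day after the nerve of the opposite limb was cut, and the cut side was not analysed here. It was cut with micrococcal nuclease and precipitated with an antibody to H3K27me3, and 2 H3K27me3 libraries and 2 input libraries were made. The H3K27me3 libraries were pooled into a single list with 1 score per peak, so no value here has a replicate error and no test was possible. The labels name neither how many animals went into a library nor a separation of cell types.

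Neurotrophins are secreted growth factors. Each binds a Trk receptor tyrosine kinase with high affinity (BDNF and neurotrophin-4 bind TrkB, and neurotrophin-3 binds TrkC), and all bind the p75 receptor encoded by Ngfr, while their unprocessed forms bind p75 together with sortilin, the product of Sort1. In peripheral nerve Schwann cells carry p75 early in development and again after injury, and they also make several of the ligands. H3K27me3 is placed by Polycomb repressive complex 2 and is a mark of genes held silent. Nerve tissue holds Schwann cells, fibroblasts, perineurial, vascular and immune cells, and a peak cannot be assigned to any of them.

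Because the peaks differed in how they lay on the start sites of these genes, 5 promoter stretches are shown. They are the 250 bases before a transcription start site (TSS) on the newer rat assembly GRCr8, from RefSeq, read 5′ to 3′ along the gene, with every CpG dinucleotide in capitals. The first Bdnf stretch precedes the TSS of NM_001270631 (chr3:116620585-116620834, plus strand), and the second precedes that of NM_001270633 (chr3:116637608-116637857, plus strand). Ntf3 is shown before NM_001270869 (chr4:160668908-160669157, minus strand) and Ntf4 before its single TSS (chr1:105029785-105030034, plus strand). Sort1 (chr2:198612245-198612494, plus strand) is the member with no peak.
Bdnf NM_001270631: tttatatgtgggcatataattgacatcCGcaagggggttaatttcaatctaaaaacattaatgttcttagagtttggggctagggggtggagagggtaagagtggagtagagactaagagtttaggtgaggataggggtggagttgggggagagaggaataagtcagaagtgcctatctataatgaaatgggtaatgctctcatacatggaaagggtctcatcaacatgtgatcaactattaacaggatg
Bdnf NM_001270633: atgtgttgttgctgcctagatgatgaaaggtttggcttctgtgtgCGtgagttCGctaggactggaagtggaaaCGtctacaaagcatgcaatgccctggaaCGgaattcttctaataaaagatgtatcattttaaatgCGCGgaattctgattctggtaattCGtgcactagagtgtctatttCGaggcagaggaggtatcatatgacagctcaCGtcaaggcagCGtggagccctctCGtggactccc
Ntf3 NM_001270869: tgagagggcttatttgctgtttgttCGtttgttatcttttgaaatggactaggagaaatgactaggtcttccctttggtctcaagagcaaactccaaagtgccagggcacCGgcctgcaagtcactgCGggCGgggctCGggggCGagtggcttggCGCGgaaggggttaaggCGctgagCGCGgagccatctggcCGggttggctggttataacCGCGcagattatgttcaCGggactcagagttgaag
Ntf4: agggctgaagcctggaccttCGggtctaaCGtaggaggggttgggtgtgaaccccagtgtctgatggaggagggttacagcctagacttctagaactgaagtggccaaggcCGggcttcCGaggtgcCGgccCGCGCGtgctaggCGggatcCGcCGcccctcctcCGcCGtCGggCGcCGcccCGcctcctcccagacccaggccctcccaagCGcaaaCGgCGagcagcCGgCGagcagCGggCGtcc
Sort1: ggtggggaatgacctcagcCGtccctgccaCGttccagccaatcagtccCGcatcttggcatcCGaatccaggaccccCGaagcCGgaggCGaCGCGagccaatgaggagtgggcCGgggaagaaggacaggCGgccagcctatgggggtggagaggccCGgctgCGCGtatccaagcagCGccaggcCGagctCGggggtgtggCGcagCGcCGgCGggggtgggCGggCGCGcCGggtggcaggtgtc

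These stretches ranged from CpG-poor to CpG-rich. The Bdnf stretch before NM_001270631 held 1 CpG, while the one before NM_001270633 held 11, Ntf3 held 15, Ntf4 held 24 and Sort1 held 25. The median over all 33469 stretches in the RefSeq table was 5, with quartiles of 2 and 15. The TSS of the first 4 lay in or beside a peak of over 2000 bp, and in CpG count their stretches ranked from percentile 7.83 to percentile 89.1 of the table. Only 4 members, Bdnf, Ntf3, Ntf4 and Sort1, had stretches in the table. None was available for Ngfr, Ntrk2 and Ntrk3, so these receptors were not searched for the letters below. The letters TCACGTCA, a variant of the cyclic AMP response element, were found on either strand of 1 member stretch, the one before Bdnf NM_001270633, and in 117 of all stretches (0.350%). The full element TGACGTCA was in no member stretch and in 531 of all (1.59%). A TSS could be matched between assemblies because the spacing was the same. In both rn5 and GRCr8 the other 5 Bdnf start sites lay 1202, 2338, 18225, 20169 and 20225 bp from the first, and the 2 of Ntf3 lay 1716 bp apart. Ntf4, with a single TSS in the list, was matched by name alone, and Sort1 has no TSS in the list to match.

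Of the 7 genes, 6 had a promoter peak, meaning a peak assigned to the gene that reached within 1000 bp of its TSS, against 38.4% of the 10647 genes that any peak names and 17.2% of the protein-coding genes of the GRCr8 table. All 6 had one in the top 25% of peak scores (at least 9.9), against 28.1% of genes named in the list. By start site, 11 of the 14 promoter IDs of these genes had an assigned promoter peak, against 38.5% of all promoter IDs in the list. All 14 had a peak of any assignment within 1000 bp, against 42.7% of the 9462 promoter IDs whose position could be rebuilt. The 14 leave out Sort1, which has no promoter ID in the list. Since a member counts only if a peak names it, the first comparison is with genes that have a peak somewhere. In the 17.2%, a gene missing from the authors' annotation counts as having no promoter peak. Of the 133 peaks, 14 were promoter peaks (10.5%), against 6226 of all peaks (4.81%). The median peak of these genes was like the median of the list in size, at 193 bp against 191 bp, with a score of 4.54 in both. The median distance from a peak's centre to the TSS was 20160 bp for the members, against 35622 bp for all peaks.

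The 6 genes fell at 2 levels. Bdnf, Ngfr, Ntf3 and Ntf4 had highest promoter peak scores of 377.3, 288.4, 286.3 and 276.6, which are percentiles 89.9 to 92.9 among the 4088 genes with a promoter peak. Ntrk2 and Ntrk3 had scores of 34.4 and 32.4, below the median of 40.6 over those genes. Scores are the values that the authors deposited, on a scale that the sources do not state. All scores under 10 were whole multiples of a small step. The 95% Poisson intervals given here assume that a step is a single tag, and counting error is the only error in them. On that basis the intervals of Ngfr (273 to 304), Ntf3 (271 to 302) and Ntf4 (262 to 292) overlapped, as did those of Ntrk2 (29.4 to 40.1) and Ntrk3 (27.5 to 37.9), while Bdnf (360.2 to 395) stood above all of them. These values depend on what is called a promoter peak. Counting only peaks whose centre the authors' annotation places in a promoter left Bdnf at 377.3 but gave 26.4 for Ntf3, 14.4 for Ngfr and 4.95 for Ntrk2, and none for Ntf4 and Ntrk3, none of whose peaks is centred in that class.

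**Figure D1:**
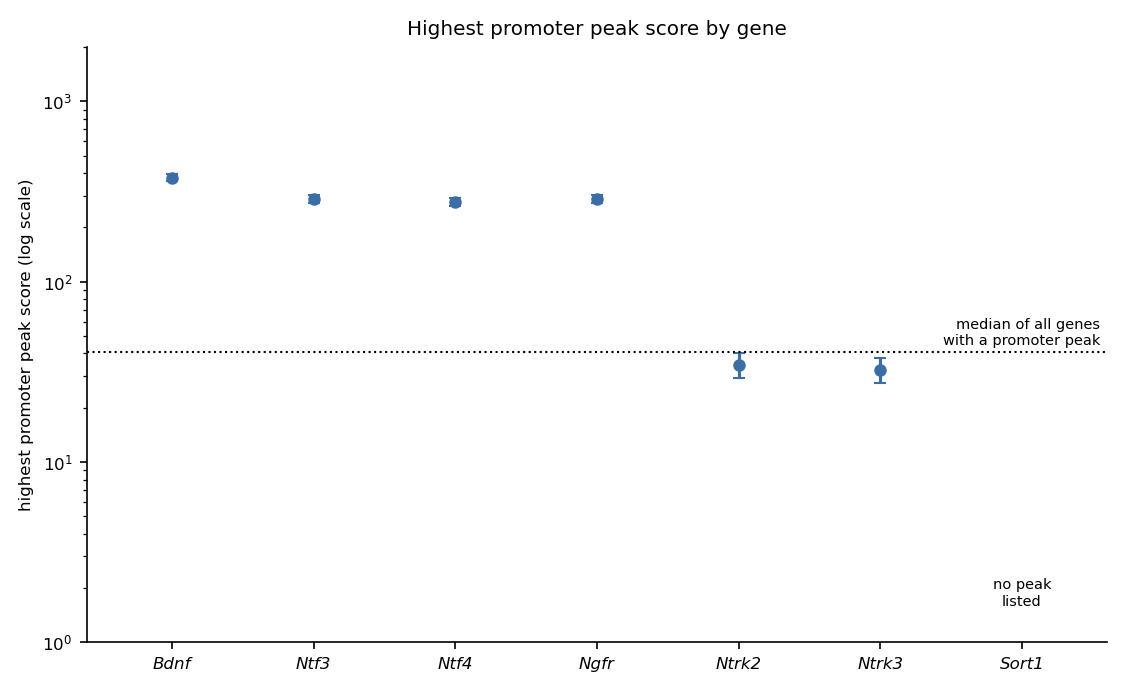
Highest promoter peak score of each gene on a log scale, with 95% counting intervals as bars, for the 7 neurotrophin and receptor genes. Bdnf, Ntf3, Ntf4 and Ngfr lie between 276.6 and 377.3, Ntrk2 and Ntrk3 at 34.4 and 32.4 lie below the dotted median of 40.6 for all genes with a promoter peak, and Sort1 has no peak.

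Width followed the same split, but it is not independent of score. If a step is a single tag, a wider peak takes in more tags at the same density. The highest promoter peak was 8583 bp wide for Bdnf, 6321 bp for Ngfr, 6195 bp for Ntf3 and 5098 bp for Ntf4, against 1426 bp for Ntrk2 and 1214 bp for Ntrk3. The median of the widest promoter peak over all genes with one was 1341 bp. Per length, the score was 54.3 per kb for Ntf4, 46.2 for Ntf3, 45.6 for Ngfr and 44.0 for Bdnf, and 26.7 for Ntrk3 and 24.1 for Ntrk2. Over the 2891 promoter peaks of at least 1000 bp the median was 37.2 per kb, with quartiles of 30.2 and 45.3. The peaks of Ntrk2 and Ntrk3 were thus near the median of all genes in width and below the lower quartile in score per kb.

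Bdnf, which encodes brain-derived neurotrophic factor, starts transcription from several first exons spliced to a shared coding exon. The list named 6 of its TSS in 2 groups, 3 within 2338 bp at the 5′ end and 3 between 18225 and 20225 bp further on. The higher peaks lay at the 2 groups (rn5), although joining peaks across gaps of up to 5000 bp made a single stretch of 33578 bp of all 17 Bdnf peaks. The 5′ group, taken as the peaks there with scores of 20 or more, held 4 peaks over 8721 bp (chr3:107369249-107377970). Their scores of 51.2, 124.4, 142.3 and 25.6 sum to 343.5 (327 to 360.3). The last, scored 25.6, is not a promoter peak. It is centred 3838 bp downstream of the TSS of NM_001270635, on the side of the other group. The downstream group lay in the single peak of 8583 bp (chr3:107387062-107395645) with a score of 377.3, the centre of which is 145 bp upstream of the TSS of NM_001270636. Between the groups were 6 peaks with scores of 3.09 to 17.5, which sum to 48.6 (42.7 to 55.3) over 6245 bp. The mark was listed at both groups of start sites. It was lower between them, in part because the 5′ group was set by score. The counting intervals of the 2 groups met at their edges with the peak scored 25.6 counted in the 5′ group. Without that peak the 5′ sum would be lower.

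Within the groups the start sites differed in how they lay. The TSS of NM_012513, the first of the gene, was in a gap of 260 bp between the peaks scored 51.2 and 124.4, and that of NM_001270635 was in a gap of 289 bp between those scored 124.4 and 142.3. The TSS of NM_001270631, with its CpG-poor upstream stretch, was inside the peak scored 124.4. The 3 downstream start sites were all inside the peak scored 377.3. A peak is assigned to 1 TSS alone, so NM_001270633 and NM_001270634 had no promoter peak of their own by assignment although that peak covers both. The remaining Bdnf peaks were small, 5 upstream of the gene with scores of 3.30 to 4.54 and 1 downstream with 6.81. No peak centre lay between that last peak, which ended 24776 bp from the first TSS, and the end of the gene, which is 50580 bp long on GRCr8.

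**Figure D2:**
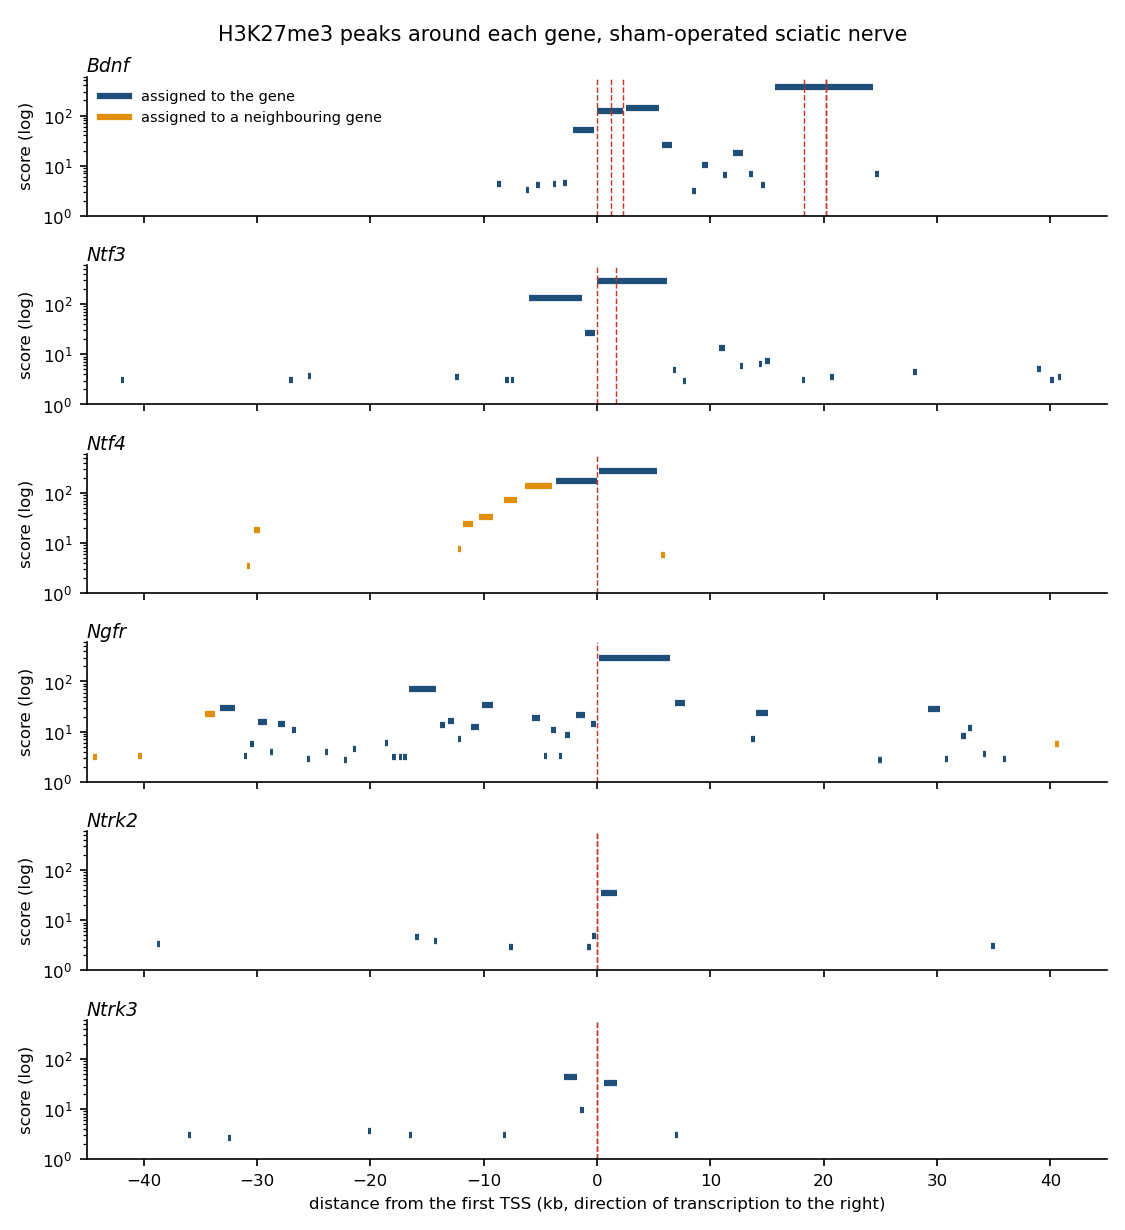
Score (log scale) of each H3K27me3 peak by its distance from the first TSS of the gene, within 45 kb, with each line as long as its peak (orange where assigned to a neighbouring gene) and TSS as red dashed lines. Bdnf has marked stretches at both groups of TSS, Ntf3, Ntf4 and Ngfr have a broad peak starting just downstream of the first TSS, and Ntrk2 and Ntrk3 have peaks of 51.4 or less, of which the highest for Ntrk2 lies further upstream than the axis reaches.

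Ntf3 encodes neurotrophin-3, the ligand of TrkC. It had the most peaks of the 7 genes, 44, of which 3 at the TSS carried a summed score of 448 and 69.8% of the gene's total. The highest, with a score of 286.3 (chr4:225701506-225707701), was centred in a CpG island in intron 1 and covered the TSS of NM_001270869. A peak scored 26.4 (805 bp) and a broader one scored 135.3 (4685 bp, chr4:225709003-225713688) followed upstream, and the TSS of NM_001270870 lay in the gap of 227 bp between the first and the second. The broad upstream peak missed the promoter definition by 284 bp. The other 41 peaks had scores of 2.68 to 13.6 and were spread over 473584 bp, as much as 301492 bp downstream of the first TSS and 172092 bp upstream of it. Of all 44 peaks, 14 were centred within the gene's length of 69463 bp on GRCr8, 12 beyond it and 18 upstream of the first TSS. The distant ones name Ntf3 because its TSS is the nearest to them.

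Ntf4, which encodes neurotrophin-4, had only 2 peaks, both broad. The peak scored 276.6 (chr1:102484931-102490029) began 207 bp downstream of the TSS, was longer than the gene itself (2832 bp on GRCr8) and was centred at the transcription end, and the peak scored 173.3 (3600 bp, chr1:102481095-102484695) ended 29 bp before the TSS. The gap between them was 236 bp. The upstream peak was centred at the end of the neighbouring Kcna7, a voltage-gated potassium channel gene, whose own 4 peaks had scores of 24.3, 33.0, 70.8 and 138.6. Joined across gaps of up to 5000 bp, the peaks formed a stretch of 18184 bp (chr1:102472462-102490646), 81.6% of it covered, with a summed score of 730.01, of which peaks assigned to Ntf4 gave 61.6% and those assigned to Kcna7 36.5%. The mark at Ntf4 thus ran on into its neighbour, with 308 bp between the nearest peaks of the 2 genes, and the list cannot say to which gene it belongs.

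Ngfr encodes p75, a receptor shared by all neurotrophins, and had the longest joined stretch of peaks of the 7 genes, 42316 bp. The highest, scored 288.4 (6321 bp, chr10:83210155-83216476), was centred in intron 1 and began 153 bp downstream of the single TSS, and a narrow peak scored 14.4 (461 bp) lay on the upstream side, leaving the TSS in a gap of 243 bp. The 28 peaks upstream of the TSS summed to 344.55 (328 to 362) over 33125 bp, close to the 4 peaks in the gene body, which summed to 355.62 (339 to 373). The highest upstream peak had a score of 69.5 (2396 bp) and was centred 15366 bp before the TSS. The mark at Ngfr was thus concentrated in 1 broad peak inside the gene, but spread over many small peaks before it. Joined across gaps of up to 5000 bp, 31 peaks formed that stretch, of which 1 peak, scored 22.7, was assigned to Phb. The 7 peaks downstream of the gene reached a score of 27.8.

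Ntrk2 encodes TrkB, the receptor of BDNF and neurotrophin-4. Its promoter peak of 34.4 (1426 bp, chr17:8462740-8464166) was centred in exon 2, and peaks of 4.95 and 2.89 lay just upstream of its 2 TSS, which are 15 bp apart. Within 5 kb of the TSS 3 peaks summed to 42.24 (36.7 to 48.5), which was 20.8% of the gene's total score. Over 60 kb upstream, 10 peaks summed to 133.74 (124 to 144) over 39150 bp (chr17:8525499-8564649). The highest of them, 51.4 (1760 bp), was centred 81051 bp before the TSS. Peaks over 50 kb from a TSS carried 70.4% of the gene's score, against 15.2% for Ntf3, 7.66% for Ntrk3 and 0 for Bdnf, Ntf4 and Ngfr. Within the gene, 315342 bp long on GRCr8, only 4 peaks were centred: the promoter peak and 3 with scores of 3.09 to 5.57. The nearest peak assigned to another gene, Slc28a3, was 656 bp beyond the last of the upstream peaks. The far upstream peaks count for Ntrk2 by nearest TSS alone, and the list cannot say to which gene they belong.

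Ntrk3 encodes TrkC, the receptor of neurotrophin-3. Its peaks were at the promoter, 32.4 (1214 bp, chr1:141238150-141239364) in intron 1 and 43.7 (1191 bp, chr1:141241711-141242902) centred 2352 bp upstream of the TSS, with a peak of 9.69 between them that was centred in a CpG island. These 3 summed to 85.79 over 4752 bp, 75.8% of the gene's score, and the other 8 had scores of 2.68 to 5.16. The peak scored 43.7 is higher than the promoter peak but missed the promoter definition by 757 bp. The gene spans 387384 bp on GRCr8, and 2 peaks were centred within it.

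Summed over all its peaks, Bdnf had a score of 796.87 over 20201 bp of peaks, Ngfr 759.99 over 24240 bp, Ntf3 641 over 20414 bp and Ntf4 449.9 over 8698 bp. Ntrk2 had 202.8 over 8080 bp and Ntrk3 113 over 4118 bp. Among the 10647 genes named in the list these sums ranked 547, 579, 741, 1176, 2777 and 4208, in the order given. Ntf4 reached its rank with 2 peaks, where Ngfr had 39 and Ntf3 44. The share within 5 kb of a TSS was 100% for Ntf4, 93.8% for Bdnf, 75.8% for Ntrk3, 69.8% for Ntf3, 46.0% for Ngfr and 20.8% for Ntrk2, so Ngfr and Ntrk2 were the members with most of their score outside that range.

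**Figure D3:**
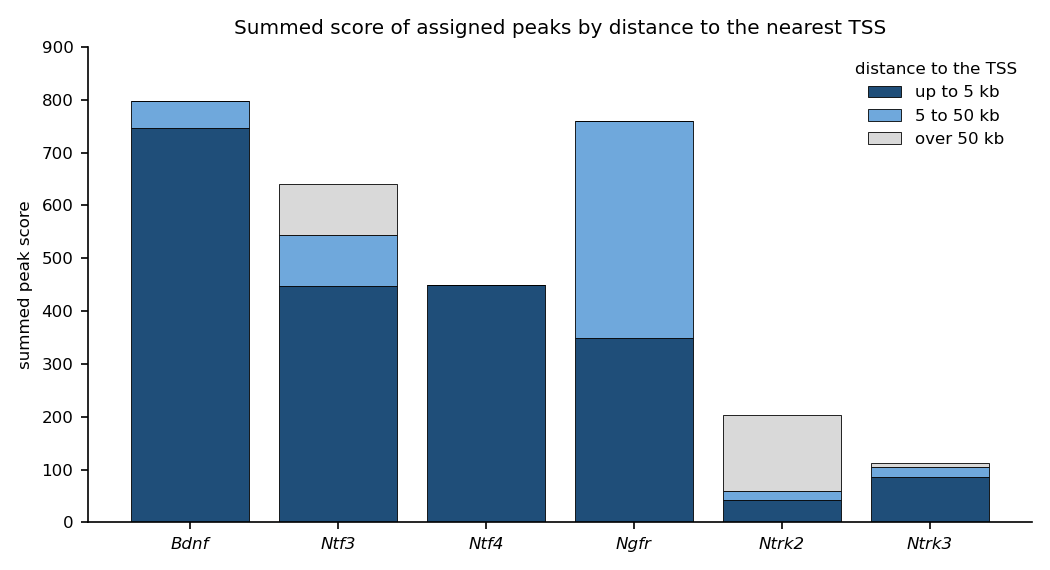
Summed score of the peaks assigned to each gene, split by the distance of the peak's centre from the nearest TSS. The sums are 796.87 for Bdnf, 641 for Ntf3, 449.9 for Ntf4, 759.99 for Ngfr, 202.8 for Ntrk2 and 113 for Ntrk3, and the share from beyond 50 kb is largest for Ntrk2, at 70.4%.

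Sort1 encodes sortilin. No peak named it, and the files give no way to tell a gene with no peak from a gene missing from the authors' annotation, since the list names genes by nearest TSS. On GRCr8 it lies between Psma5 and Mybphl. The rn5 list has no peak between the last peak assigned to Psma5 (ending at 230514217 on chromosome 2) and the first assigned to Psrc1 (starting at 230642518), a stretch of 128301 bp that is longer than the 81016 bp of Sort1 on GRCr8. The highest peak of the adjacent Psma5 had a score of 200.1, centred 8429 bp upstream of the Psma5 TSS. The Sort1 stretch shown above holds 25 CpG.

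Start sites of these genes often lay in a narrow gap between peaks. Of the 13 distinct TSS positions, 7 lay in a gap between 2 peaks within 1000 bp, against 30.7% of all 3948 positions with a peak within 1000 bp. Another 5 were inside a peak (36.7% of all) and the 1 of Ntrk3 had a peak on 1 side. The 7 positions shared 6 gaps, since both Ntrk2 positions lie in the same one. These gaps measured 227, 236, 243, 260, 289 and 490 bp, with a median of 252 bp, against 666 bp over all 1201 gaps of this kind. The smallest gap between neighbouring peaks in the whole list was 220 bp, so the narrowest member gaps are close to the least that the list shows, and the part of peak calling in that width was not tested. Among TSS beside or in a peak of at least 2000 bp, 5 of the 10 member positions were in a gap, against 27.3% of all 1622 positions. Gap widths were not compared within that set, so the medians of 252 and 666 bp are not matched for the width of the peaks beside them.

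**Figure D4:**
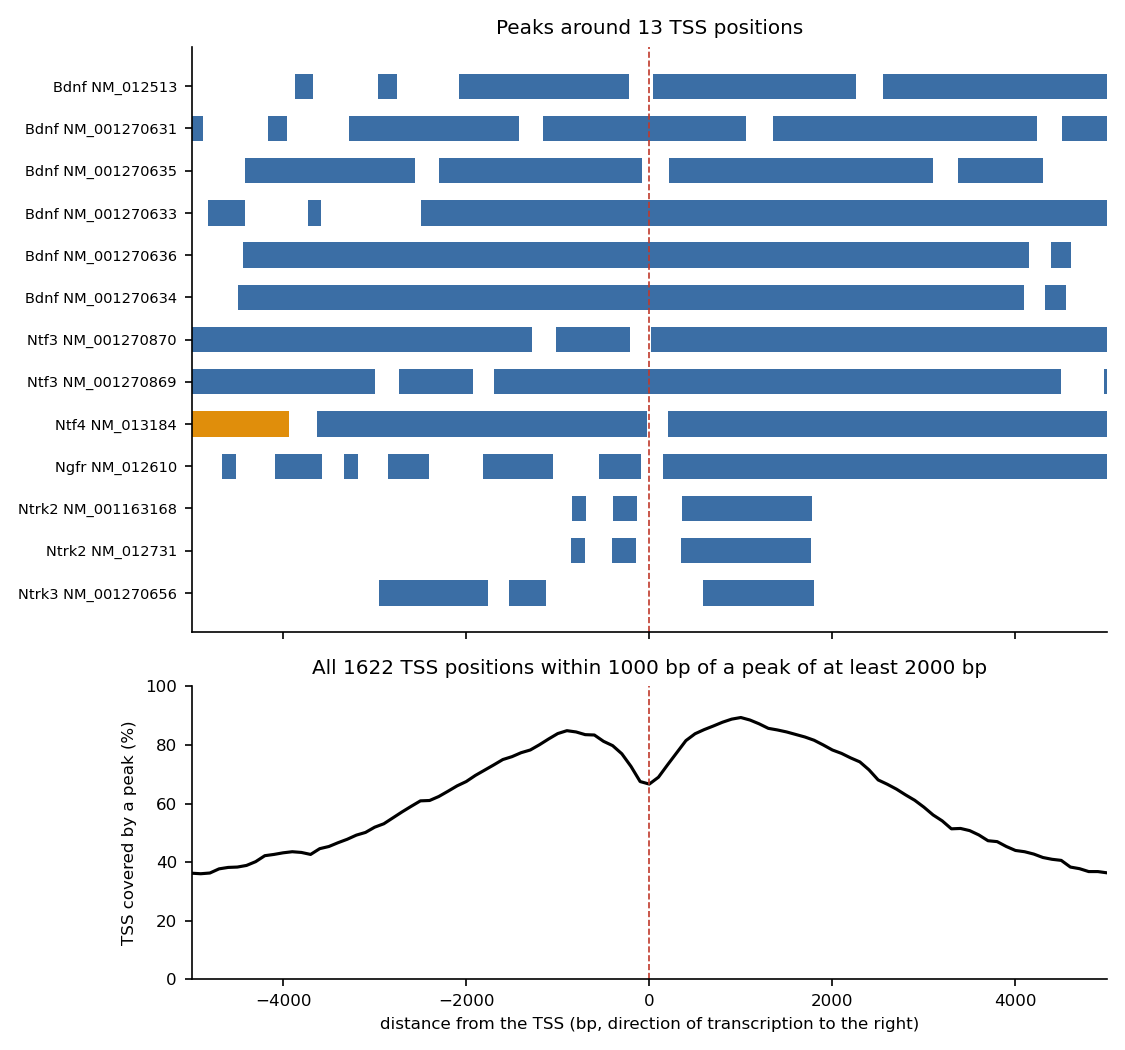
Upper panel: peaks (blue, or orange for a neighbouring gene) around each TSS position of the genes, with the TSS at 0. Lower panel: share of all 1622 TSS positions near a peak of at least 2000 bp that are covered by a peak, by distance, which is 66.6% at the TSS, 84.9% at 900 bp upstream and 89.4% at 1000 bp downstream.

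By position, 6 of the 133 peaks (4.51%) were centred in a promoter in the authors' annotation, against 1.63% of all peaks. Intergenic centres made up 69.2%, against 74.7%, and introns 24.1%, against 21.8%. Peak centres in repeats made up 23.3%, against 31.1%. Of the promoter peaks, those just inside and just outside the promoter limit show how the limit works. Just inside lay the Ntrk2 peak scored 2.89 (150 bp wide, centred 767 bp from the TSS), and just outside the Ngfr peak scored 21.2 (772 bp wide, centred 1436 bp from the TSS, 50 bp too far).

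Of 34 other genes of the pathway, 27 were named by a peak and 13 had a promoter peak, against 38.4% of all genes named in the list and 17.2% of protein-coding genes. In 11 of them it was in the top 25% of scores, against 28.1% of genes named in the list. No peak named 7 of the 34 genes, while the 38.4% and 28.1% are over named genes only, so the bases differ. Only the 17.2% is over genes with and without a peak, and 13 of 34 lies above it. In that share a gene missing from the authors' annotation counts as having no promoter peak, so the 17.2% may be too low. Among the 11 genes were Shc3, an adaptor of Trk signalling, at 326.5 (7302 bp), the sortilin family genes Sorcs3 at 95.7 and Sorl1 at 90.3, and Sorcs2 at 42.1. Rtn4r, the Nogo receptor that can act with p75, had 37.7 and Lingo1, its partner, had 35.1. Plcg1, a phospholipase downstream of Trk receptors, had 21.2, Bex1, whose product binds p75, had 19.2, the adaptor gene Shc2 had 19.2 and Sorcs1, of the sortilin family, had 16.5. The Bex1 peak is listed on chromosome 1, centred in exon 3 of 3, and whether it lies at the Bex1 gene itself was not checked. The median was 281.45 over the 6 members with a promoter peak, against 35.1 over these 13 genes and 40.6 over all genes with one. In the GDNF family, another set of growth factors of nerve, 7 of 9 ligand and receptor genes had a promoter peak, against the same 38.4% and 17.2%, with a median of 118 and the highest score, 480.6, at Gdnf. Among neuregulin and EGF family ligands it was 8 of 11, beside the same backgrounds, with a median of 93.6 and the highest score, 330.7, at Areg.

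Marker genes of the cell types in the nerve are read against the same backgrounds, 38.4% of genes named in the list and 17.2% of protein-coding genes. Of 8 Schwann cell markers, 4 had a promoter peak, among them Sox10 at 4.13, Erbb3 at 117.2 and Mbp at 77.4. All 4 neuron markers had one, with scores from 91.2 to 753.9. Of 5 fibroblast markers, 3 had one, with scores from 4.13 to 561.3 and a median of 4.95, and 1 of them was in the top 25% of scores. None of 4 leukocyte markers had one. A histone mark gives no expression level, so these values place the tissue only loosely, and their part in the results above was not tested.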

How the data were processed

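The data are a single list of H3K27me3 peaks from the 2 sham H3K27me3 libraries, without the 2 input libraries. Per the submitters' processing notes, CASAVA 1.8.2, Bowtie and HOMER were used. Per the file headers, the list is a combined HOMER peak list annotated on rn5. Calling parameters, use of the input and the way of pooling libraries were not given in the sources used here. Scores were deposited by the authors on no stated scale, and widths, coordinates and TSS distances were deposited in bp. The depth of each library is unknown.

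A promoter peak is a peak assigned to a gene with a distance of no more than 1000 bp plus its width divided by 2. TSS positions were rebuilt from the peaks' centres and distances, for 9462 of 10900 promoter IDs (86.8%), with a tolerance of 2 bp. Of the 97601 scores under 10, 100% were whole multiples of 0.206271 within 0.005, and the 95% exact Poisson intervals treat a step as 1 tag. No test was run, since the list holds no value per library, and background shares stand beside the counts. Genes were matched to the GRCr8 table by symbol (93 of 93). The 7 members and the pathway lists were chosen with earlier results of these data known. The named genes are the members, pathway genes with a promoter peak in the top 25% of scores, the top gene of each compared family and, chosen after their values were seen, the Schwann cell markers Sox10, Erbb3 and Mbp, and some genes that the rule takes are not reported here. The rebuilding of TSS positions and the promoter calls were checked on simulated data. Alternatives were a reach of 0 or 5000 bp, the authors' promoter-TSS class, score and width minimums and joining peaks within 5000 bp. Python 3.11.15, pandas 2.3.3, numpy 2.4.6, scipy 1.17.1 and matplotlib 3.10.9 were used.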

Additional observations from a re-analysis of the deposited data

How the results depend on the processing

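The counts of 6 members and 11 TSS with a promoter peak depend on the reach. With a reach of 0 bp, where a peak must cover the TSS that it is assigned to, the counts were 2 members (Bdnf and Ntf3, against 13.8% of genes) and 3 TSS (against 13.5% of promoter IDs). By the authors' promoter-TSS class, which uses the peak's centre, they were 4 members (against 18.4% of genes) and 5 TSS (against 18.1% of promoter IDs). The median highest score of 281.45 over the members called became 331.8 with a reach of 0 bp, 20.4 by the promoter-TSS class and 598.54 with peaks within 5000 bp joined. The median widest promoter peak of 5646.5 bp became 7389 bp, 633 bp and 25707.5 bp in the same order of settings. These medians are over the members called under each setting. With joined peaks, the summed score at the TSS was 85.79 for Ntrk3 and 42.24 for Ntrk2, which turned their order round. Ntf4 had 730.01, neighbours' peaks included, and moved from the lowest of the 4 high members to above Ngfr (692.15) and Ntf3 (504.93), with Bdnf still first at 796.87. With a reach of 5000 bp, a score minimum at the median or the top 25%, no peaks of the smallest width, or joined peaks, the count stayed at 6 members, while the share of all genes called was 61.9%, 32.7%, 28.1%, 33.3% and 43.7% under these settings in turn, against 38.4% in the reported setting. The count of 7 TSS positions in a gap was 7 with a flank of 500 bp and 7 with peaks of at least the median score, alternatives chosen after seeing the data. No paired analysis was possible because the list has no value per library, and leaving out a replicate could not be run for the same reason. A pooled score with no depth limits every comparison to counting error.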

Other observations

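The peaks of Bdnf and Ntrk3 lie beside long stretches with no listed peak. The nearest peak on the lower-coordinate side of the Bdnf peaks, assigned to Kcna4, was 1818251 bp away, the 144th longest of 129529 gaps between neighbouring peaks. The nearest on that side of the Ntrk3 peaks, assigned to Klhl25, was 2176404 bp away, the 110th longest. Ntrk3 is on the minus strand and spans 387384 bp on GRCr8, so this stretch takes in most of the gene itself. Of all gaps, 330 were over 1000000 bp.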
